A study of Mus musculus with 8 samples.

Results

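Immediate early genes are transcribed in neurons soon after a burst of synaptic activity, without a need for new protein. Messenger RNA of 10 such genes, Fos, Fosb, Junb, Arc, Egr1, Egr3, Npas4, Nr4a1, Nr4a3 and Nptx2, was examined in single-nucleus RNA-seq of the mouse hippocampus. The 10 genes were picked by symbol among the 30211 genes of the count tables, and each symbol matched a gene identifier of the annotation. Nuclei came from 3 WT and 3 GKO mice aged 7 months and from 1 J20;WT and 1 J20;GKO mouse aged 6 months, with 1 library per mouse. GKO mice lack GSAP, the γ-secretase activating protein, in all tissues: exons of the gene were flanked by loxP sites and removed by crossing with a CMV-Cre line. J20 mice carry human APP with the Swedish and Indiana mutations under the PDGFB promoter, which drives it mainly in neurons. WT and GKO mice carry no such transgene, and both J20 mice carry it. The labels give no stimulus or behavioural task for any mouse.

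Most of these genes encode transcription factors. Calcium entry through synaptic receptors and channels activates kinases, these phosphorylate factors such as CREB and SRF that already sit at the promoters, and the transcripts appear within minutes and are short-lived. Fos, Fosb and Junb form AP-1 dimers, Egr1 and Egr3 are zinc finger factors, Npas4 is a bHLH-PAS factor that responds selectively to calcium signals in neurons, and Nr4a1 and Nr4a3 are orphan nuclear receptors. Arc and Nptx2 act at the synapse itself: Arc promotes the removal of AMPA receptors, and Nptx2 is a secreted pentraxin that clusters them. In the hippocampus these transcripts are used to mark neurons that were recently active, and few dentate granule cells carry them in a resting animal.

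Promoter sequence is shown for 4 members, because the CRE is the site that CREB binds. A part of such sites in the levels below was not tested. A RefSeq promoter entry (GRCm38.p6) matched 6 of the 10 genes, namely Fos, Fosb, Junb, Npas4, Nr4a1 and Nr4a3, and had none for Arc, Egr1, Egr3 and Nptx2. The windows of Npas4 and Nr4a3 overlap annotated exons over 250 and 152 bases and are not printed. That of Fosb overlaps an exon over 6 bases, which were left out. Sequences run 5′ to 3′ on the strand of the gene over up to 250 bases before its start, without any base of an annotated exon, and the Nr4a1 window lies within the gene as GENCODE draws it, before a start further downstream. Capitals mark TGACG, the core of the CRE, or CGTCA, the same letters on the other strand.
Fos (chr12:85473640-85473889, plus strand): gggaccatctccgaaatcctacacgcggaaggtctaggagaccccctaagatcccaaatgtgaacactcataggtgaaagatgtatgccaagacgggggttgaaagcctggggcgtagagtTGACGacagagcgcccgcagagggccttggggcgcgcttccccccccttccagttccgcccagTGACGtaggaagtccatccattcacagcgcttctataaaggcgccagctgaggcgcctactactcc
Fosb (chr7:19310052-19310295, minus strand): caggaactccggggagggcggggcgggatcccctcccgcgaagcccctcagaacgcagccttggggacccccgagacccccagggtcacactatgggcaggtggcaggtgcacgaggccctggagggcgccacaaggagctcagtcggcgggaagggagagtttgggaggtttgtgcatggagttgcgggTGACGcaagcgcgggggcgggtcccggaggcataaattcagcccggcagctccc
Junb (chr8:84978749-84978998, minus strand): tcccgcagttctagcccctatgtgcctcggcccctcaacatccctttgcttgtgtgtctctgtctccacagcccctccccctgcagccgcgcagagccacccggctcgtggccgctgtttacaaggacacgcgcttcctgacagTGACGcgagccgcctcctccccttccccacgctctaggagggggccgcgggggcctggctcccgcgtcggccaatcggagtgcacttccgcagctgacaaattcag
Nr4a1 (chr15:101266596-101266845, plus strand): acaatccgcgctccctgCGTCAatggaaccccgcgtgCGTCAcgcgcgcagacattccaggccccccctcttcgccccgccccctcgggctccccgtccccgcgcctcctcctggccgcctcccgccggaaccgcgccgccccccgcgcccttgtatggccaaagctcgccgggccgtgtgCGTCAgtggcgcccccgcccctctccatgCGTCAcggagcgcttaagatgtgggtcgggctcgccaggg

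The CRE core was found, on either strand, within 250 bases before the start of all 6 members with an entry, against 17.8% of the 32851 promoters of that length. G and C made up 58.4 to 74.4% of the members' windows, and the share over all promoters was not matched on this. Nr4a1 and Nr4a3 each held 4 copies, Fos and Npas4 2 each, and Fosb and Junb 1 each. The Fos copies began 129 and 66 bases before the start, the nearer of them upstream of a TATA box (TATAAA, in 12.4% of promoters). The full CRE (TGACGTCA, in 1.55% of promoters), which contains the core, was in no member's window, nor was an AP-1 site (TGANTCA, in 6.75%), the NBRE of the Nr4a receptors (AAAGGTCA, in 1.34%) or a CArG box (in 1.47%). A site for Egr factors (GCGNGGGCG, in 4.70%) lay in the windows of Fosb and Nr4a1. In the GENCODE M21 annotation of GRCm38, all 10 are protein-coding genes, from Fos (chr12:85473890-85477273), with at most 4 exons in a transcript, to Nr4a3 (chr4:48045153-48086447), with 8.

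Several libraries stood apart before any result. The deposited data carry 3 dates in their names: WT 1 and GKO 1 share one, J20;WT has one of its own, and the other 5 mice share the remaining one. What the dates stand for is not given in the sources used here. Xist was at 2135 to 2410 CPM (counts of UMIs per 1000000 UMIs) in WT 1, GKO 1 and J20;GKO and at most 3.00 CPM in the other 5, and Ttr, a choroid plexus transcript, was at 1107 to 1606 CPM in WT 1, GKO 1 and J20;WT, at 284 CPM in GKO 3 and at most 23.7 CPM elsewhere. Gsap was at 19.8 to 23.0 CPM in all 8 mice. These counts do not check the knockout, since 3′ tags need not come from the removed exons. A total of 32041 nuclei passed the filters, 2731 to 5252 per library, with 21020159 to 43310978 UMIs per library and a median of 4579 to 6438.5 UMIs per nucleus. Any pair of libraries shared 2 to 27 cell barcodes.

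Cell types were rebuilt from the counts, with the 10 genes left out of the clustering, and are named after markers with the ending "-like", because no cell labels of the study were used. Excitatory neuron-like nuclei numbered 12960, of which 5664 were dentate granule-like, 2208 CA1-like, 1496 CA3-like and 3592 other excitatory nuclei, a group of 7 clusters that carried excitatory markers and no clear subtype. The rest held 1655 inhibitory-like, 7219 oligodendrocyte-like, 2798 astrocyte-like, 2074 microglia-like, 1188 OPC-like and 418 mural or fibroblast-like nuclei, some small types, and 3193 nuclei (9.97%) left unnamed. The summed CA1 markers, 6 of 6 detected, were at 945 to 1452 CPM in CA1-like nuclei and at 32.5 to 43.3 CPM in dentate granule-like nuclei, and the summed dentate markers, 9 of 9 detected, at 250 to 476 CPM in CA1-like and 3063 to 4038 CPM in dentate granule-like nuclei, though also at 3101 to 3418 CPM in oligodendrocyte-like nuclei. Values below are UMIs of a gene summed over the nuclei of a type in a mouse, as CPM of all UMIs in that sum. Fewer nuclei that carry a transcript and less of it per nucleus cannot be told apart in such a sum. Levels are compared between cell types and mice, not between genes.

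The transcripts were sparse, and most of their UMIs came from neurons, as did most UMIs of all genes. In all nuclei together there were 7475 UMIs of Nr4a1, 6156 of Junb, 5121 of Nr4a3, 3121 of Arc, 1956 of Nptx2, 1740 of Npas4, 1572 of Egr1, 1270 of Egr3, 974 of Fos and 344 of Fosb. A UMI was seen in 12.9% of nuclei for Nr4a1 and in 0.705% for Fosb. Excitatory neuron-like nuclei held between 59.2% (Fos) and 79.6% (Nr4a3) of a gene's UMIs. Of all UMIs, dentate granule-like nuclei gave 19.6%, CA1-like 12.3%, CA3-like 10.9% and other excitatory nuclei 19.6%. The Fos share was below the sum of these, and every other member's share was above it. Dentate granule-like nuclei were 17.7% of nuclei and gave 19.6% of all UMIs, but they gave only 2.56% of the Nr4a1 UMIs, 2.98% of Arc, 3.51% of Npas4, 4.24% of Nr4a3 and 4.52% of Fos. Egr3 was the member nearest to their share of all UMIs, with 20.0%.

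**Figure D1:**
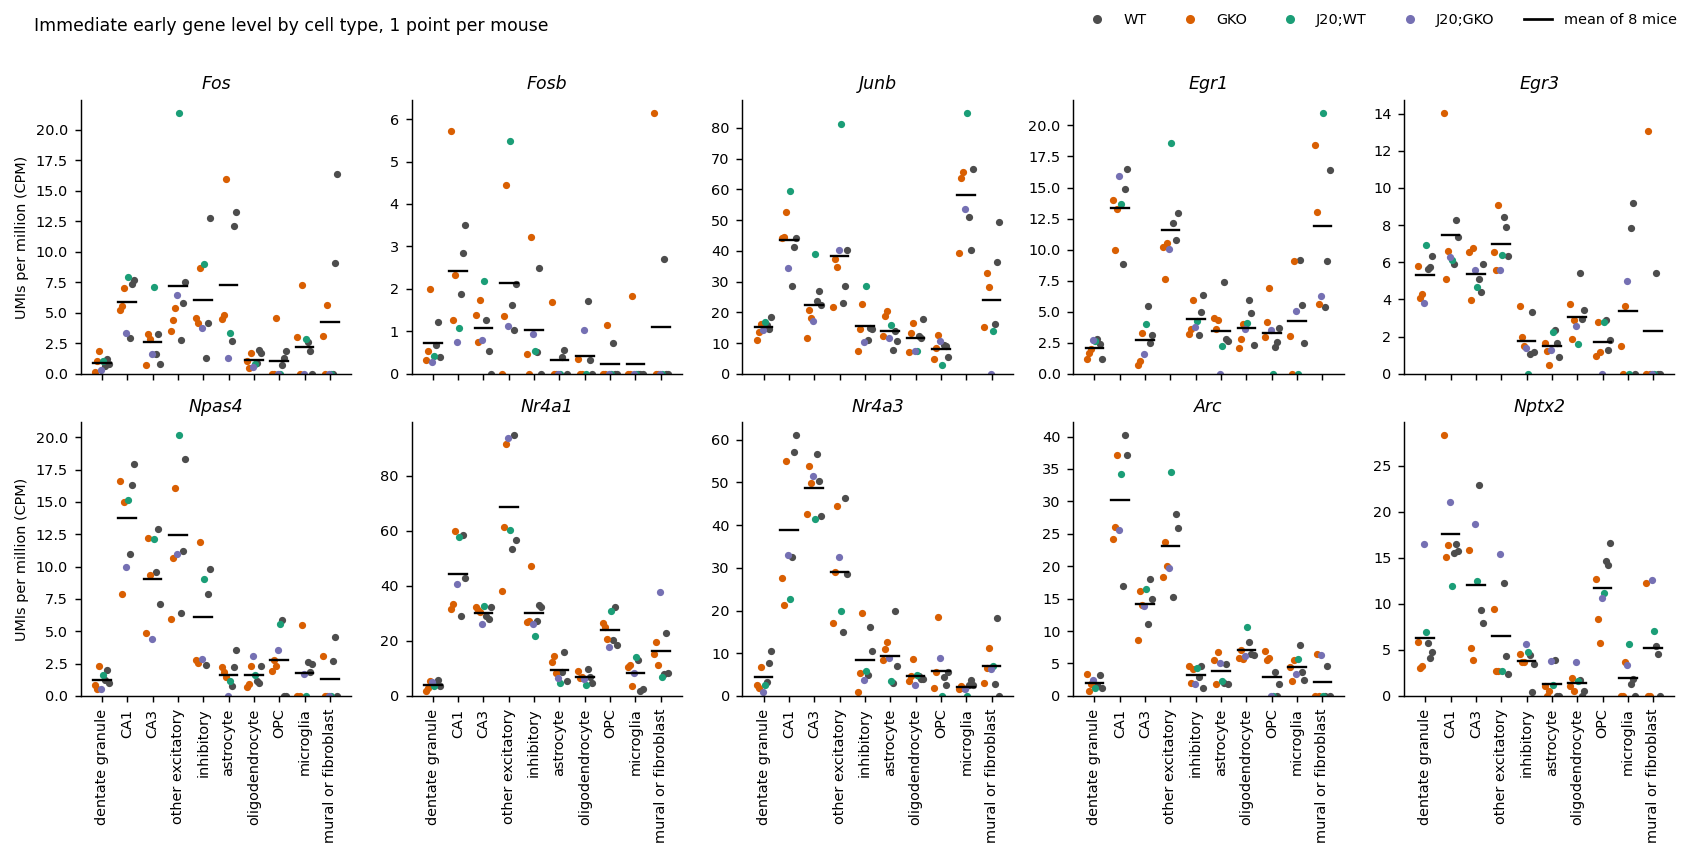
Level of each gene (CPM, linear axes that differ between panels) in 10 cell types, with 1 point per mouse coloured by genotype and a bar at the mean of 8 mice. Arc, Npas4, Nr4a1 and Nr4a3 were high in CA1, CA3 and other excitatory nuclei and low in dentate granule nuclei, while Junb had its highest mean in microglia.

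The fit placed every member lower in dentate granule-like than in CA1-like nuclei. By mouse, 1 pair of values ran the other way, with Egr3 at 6.93 CPM in dentate granule-like and 6.13 CPM in CA1-like nuclei of J20;WT. Arc and Nr4a1 differed most, with log2 fold changes of -3.98 and -3.50, and Egr3 least, with -0.53. All 10 members were lower in the dentate granule-like nuclei, where 21.2% of the 15014 genes tested were called lower and 21.5% higher (edgeR quasi-likelihood test with mouse as a block, Benjamini-Hochberg adjusted p below 0.05 over all genes and a log2 fold change beyond 0.3). The median log2 fold change was -2.71 over the 10 members and 0.01 over all genes. With the 5 mice that share a date alone the count was also 10.

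Among the AP-1 genes, Fos was at 0.166 to 1.84 CPM (median 0.905) in the dentate granule-like nuclei of the 8 mice and at 2.95 to 7.93 CPM (median 6.27) in the CA1-like nuclei, so that the highest dentate value lay below the lowest CA1 value. The log2 fold change was -2.71 ± 0.244 (SE; adjusted p = 5.46e-08, edgeR). Junb, the AP-1 partner with the most UMIs, was at 10.9 to 18.6 CPM (median 15.3) against 28.5 to 59.5 CPM (median 44.2), again without overlap, and fell by 1.58 on the log2 scale (SE 0.109). Fosb had 37 UMIs in all dentate granule-like nuclei and 74 in CA1-like nuclei, and its ranges of 0.271 to 2.0 CPM and 0.740 to 5.71 CPM overlapped. Its log2 fold change was -1.67 ± 0.371 (adjusted p = 0.00104, edgeR).

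The zinc finger genes parted ways. Egr1, a factor tied to long-term potentiation, was at 1.16 to 2.82 CPM (median 2.21) in dentate granule-like nuclei and at 8.86 to 16.5 CPM (median 13.9) in CA1-like nuclei, a log2 fold change of -2.70 ± 0.184. Egr3 was at 3.8 to 6.93 CPM (median 5.69) and 5.10 to 14.0 CPM (median 6.45), with most mice in the range that both types shared, and its log2 fold change was -0.53 ± 0.157 (adjusted p = 0.00859, edgeR). Egr3 thus passed the test with the smallest difference of the 10 genes.

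Npas4 and the nuclear receptors showed wide gaps. Npas4 was at 0.527 to 2.30 CPM (median 1.1) in dentate granule-like nuclei and at 7.86 to 17.9 CPM (median 15.1) in CA1-like nuclei, a log2 fold change of -3.45 ± 0.180. Nr4a1 was at 1.66 to 5.90 CPM (median 4.09) against 29.0 to 59.8 CPM (median 41.7). No dentate value of either gene came near the lowest CA1 value, and the Nr4a1 difference had the smallest adjusted p of the 10 (log2 fold change -3.50 ± 0.122, adjusted p = 2.21e-13, edgeR). Nr4a3 was at 0.813 to 10.5 CPM (median 2.92) against 21.2 to 61 CPM (median 32.7), with a log2 fold change of -3.19 ± 0.146 and a spread over mice that was wide in both types.

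Of the synaptic effectors, Arc was at 1.74, 3.17 and 1.19 CPM in the dentate granule-like nuclei of WT 1, 2 and 3, at 3.32, 0.790 and 1.84 CPM in those of GKO 1, 2 and 3, at 1.22 CPM in J20;WT and at 2.44 CPM in J20;GKO. In CA1-like nuclei the same mice were at 16.9, 40.2 and 37.2 CPM, at 24.1, 26.1 and 37.2 CPM, at 34.2 CPM and at 25.5 CPM. Every CA1 value was far above every dentate value, and the log2 fold change was -3.98 ± 0.195 (adjusted p = 4.09e-10, edgeR). Nptx2 was less separated, at 3.03 to 16.5 CPM (median 5.25) against 11.9 to 28.3 CPM (median 16.1). Its highest dentate value came from J20;GKO, and the log2 fold change was -1.69 ± 0.219.

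**Figure D2:**
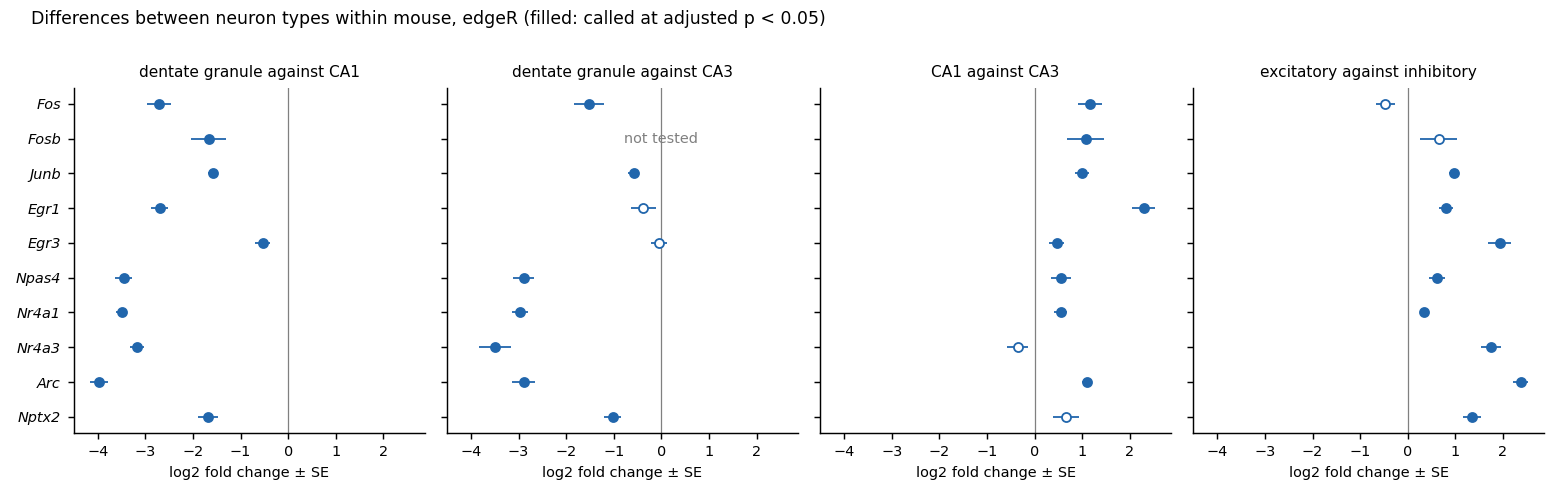
Log2 fold change with its SE for each gene between neuron types within mouse (edgeR, 8 mice with mouse as a block). Filled points were called at an adjusted p below 0.05. All 10 genes lay to the left of 0 for dentate granule against CA1, from -3.98 (Arc) to -0.53 (Egr3).

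CA3-like nuclei, the recurrent pyramidal neurons that granule cells innervate, gave a similar but less complete picture. In the dentate granule-like against CA3-like comparison, 7 of the 9 members tested were lower, where 24.7% of all genes tested were called lower and 23.5% higher. Nr4a3 fell by 3.50 on the log2 scale (SE 0.336), Nr4a1 by 2.96, Npas4 by 2.89, Arc by 2.89, Fos by 1.52, Nptx2 by 1.03 and Junb by 0.58. Egr1, with a log2 fold change of -0.38 ± 0.268 and an adjusted p of 0.237 (edgeR), and Egr3, with -0.05 ± 0.165 and 0.802 (edgeR), were not called, and Fosb had too few UMIs to be tested.

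CA1-like nuclei exceeded CA3-like nuclei for 8 of 10 members, where 16.3% of all genes were called higher and 19.2% lower. Egr1 differed most: it was at 0.689 to 5.42 CPM (median 2.81) in CA3-like nuclei, below every CA1 value, and its log2 fold change was 2.29 ± 0.237 (adjusted p = 1.67e-07, edgeR). Fos followed with 1.16 ± 0.243, Arc with 1.1 ± 0.0997, Fosb with 1.07 ± 0.386 and Junb with 1.00 ± 0.152. Npas4 (0.56), Nr4a1 (0.55) and Egr3 (0.46) were called with smaller differences. Nr4a3 ran the other way, at 41.4 to 56.7 CPM (median 50.2) in CA3-like and 21.2 to 61 CPM (median 32.7) in CA1-like nuclei, but its log2 fold change of -0.35 ± 0.226 was not called (adjusted p = 0.25, edgeR), nor was that of Nptx2 (0.65 ± 0.272, adjusted p = 0.0823, edgeR). The count of 8 fell to 5 without WT 2, and also to 5 when each nucleus was gated by its own markers.

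Inhibitory neurons release GABA, and their calcium signals reach the same genes. Excitatory neuron-like nuclei were higher than inhibitory-like nuclei for 8 of 10 members, where 22.2% of all genes were called higher and 22.5% lower. Arc (log2 fold change 2.38 ± 0.161) and Egr3 (1.93 ± 0.243) differed most, followed by Nr4a3 (1.75), Nptx2 (1.36), Junb (0.97), Egr1 (0.81) and Npas4 (0.61). Nr4a1 differed least among the genes called: it was at 23.3 to 51.7 CPM (median 33.2) in excitatory neuron-like and at 21.8 to 47.4 CPM (median 27.2) in inhibitory-like nuclei, ranges that nearly coincide, with a log2 fold change of 0.34 ± 0.0893 (adjusted p = 0.00306, edgeR). Fos, with -0.47 ± 0.200 (adjusted p = 0.0507, edgeR), and Fosb, with 0.66 ± 0.387 (adjusted p = 0.158, edgeR), were not called. These near-threshold calls moved with the settings: Fos was called lower in excitatory neuron-like nuclei under 7 alternatives, among them each in which WT 1, WT 2, J20;WT or J20;GKO was left out, and Nr4a1 was no longer called under 4, among them those without J20;WT or J20;GKO. The excitatory sum mixes unlike subtypes. Mean Fos was 0.878 CPM in dentate granule-like, 5.87 in CA1-like, 7.16 in other excitatory and 6.05 in inhibitory-like nuclei. Mean Nr4a1 was 4.01, 44.2, 68.8 and 30.3 CPM in the same order. The part of this mixture in the differences of these genes was not tested.

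The order of the cell types differed from gene to gene. CA1-like nuclei had the highest mean of 10 types for Arc (30.2 ± 8.16 CPM, SD, n = 8 mice), Egr1 (13.4 ± 2.70), Egr3 (7.46 ± 2.82), Npas4 (13.7 ± 3.62), Fosb (2.42 ± 1.62) and Nptx2 (17.6 ± 5.01). Other excitatory nuclei led for Nr4a1 (68.8 ± 21.6) and CA3-like nuclei for Nr4a3 (48.6 ± 5.84). Microglia-like nuclei led for Junb (58.1 ± 15.2), and astrocyte-like nuclei for Fos (7.26 ± 5.61), with astrocyte values from 1.28 to 15.9 CPM over the mice. Dentate granule-like nuclei had the lowest mean of 10 types for Fos (0.878 ± 0.537), Arc (1.96 ± 0.935), Egr1 (2.08 ± 0.673), Npas4 (1.25 ± 0.659) and Nr4a1 (4.01 ± 1.38).

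Neighbours in these orders could not be separated. The exact permutation test within mouse called 0 of 90 neighbouring pairs at an adjusted p of 0.05, with 17 at an unadjusted p below 0.05, and the smallest adjusted p was 0.0879. With 8 mice the smallest p it can give is 0.0078, which 8 pairs reached, and 15 pairs would have had to reach it for the adjusted value to pass. Those 8 pairs, higher in 8 of 8 mice, included Arc in other excitatory over CA3-like nuclei (log2 difference 0.66), Nr4a1 in CA1-like over inhibitory-like nuclei (0.51) and Nr4a3 in other excitatory over astrocyte-like nuclei (1.63).

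Some glial types carried members too. Junb was at 51.1, 40.4 and 66.6 CPM in the microglia-like nuclei of WT 1, 2 and 3, at 39.1, 63.8 and 65.6 CPM in those of GKO 1, 2 and 3, at 84.7 CPM in J20;WT and at 53.5 CPM in J20;GKO, so every mouse was above its own dentate granule-like value. The summed excitatory markers were at 370 to 679 CPM in these nuclei against 4202 to 4875 CPM in CA1-like nuclei. Nr4a1 was at 17.7 to 32.3 CPM (mean 24.0 ± 5.55) in OPC-like nuclei, the progenitors of oligodendrocytes, and Nptx2 at 5.77 to 16.6 CPM (mean 11.8 ± 3.52), while Fosb had 0 UMIs in the OPC-like nuclei of 6 of 8 mice. The summed excitatory markers were at 713 to 1650 CPM in OPC-like nuclei, and the part of neuronal RNA in these values was not tested. Thinned to 2000 UMIs, 4.16% of OPC-like nuclei had Nr4a1 and 1.86% Nptx2, against 1.37% and 0.239% of oligodendrocyte-like nuclei, while Junb (1.42% against 2.5%) and Arc (0.531% against 1.28%) were below that level.

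Free RNA in the droplets gives every nucleus some UMIs of neuronal genes, so detection was set against oligodendrocyte-like nuclei. Before any thinning, Arc was seen in 24.4% of CA1-like nuclei (median depth 12444 UMIs), 18.0% of CA3-like nuclei, 1.24% of dentate granule-like nuclei (median depth 7795.5 UMIs) and 1.73% of oligodendrocyte-like nuclei (median depth 2212 UMIs). With each nucleus thinned to 2000 UMIs, which left out 2625 of the oligodendrocyte-like nuclei, these shares were 6.18%, 2.21%, 0.268% and 1.28%. The dentate share of Arc thus lay below that of oligodendrocyte-like nuclei. Free RNA can be a larger part of the UMIs of a shallower nucleus, so the oligodendrocyte share is not a floor for deeper types.

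The same held for 5 of the 10 members. After thinning, Nr4a1 was seen in 7.68% of CA1-like, 1.07% of dentate granule-like and 1.37% of oligodendrocyte-like nuclei, Nr4a3 in 6.18%, 0.767% and 0.805%, Egr1 in 3.00%, 0.428% and 0.805%, and Fos in 1.36%, 0.143% and 0.239%. By these shares alone, detection in dentate granule-like nuclei cannot be told apart from free RNA for those 5 genes. Egr3 (1.18% in both CA1-like and dentate granule-like nuclei against 0.697%), Nptx2 (2.82% and 0.999% against 0.239%) and Junb (7.45% and 2.89% against 2.5%) were above the oligodendrocyte share in both, as were Npas4 and Fosb. In CA1-like and other excitatory nuclei all 10 were above it, whereas Egr1 in CA3-like nuclei and Arc and Egr3 in inhibitory-like nuclei were not. Dentate granule-like nuclei were also thinned to 5000 UMIs. The variance of UMIs per nucleus divided by the mean was then 5.04 for Nr4a3, 2.23 for Fos and 2.03 for Arc. It was 1.19 for Nr4a1 and 1.05 for Egr1, where a larger value means UMIs held by fewer nuclei. The part of free RNA in these values was not tested.

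Within dentate granule-like nuclei the members were unevenly spread over the clusters. In 2770 nuclei led by Plk5 and C1ql2, Nptx2 was at 12.2 ± 5.29 CPM (SD, n = 8), against 1.65 ± 2.61 CPM in 2894 nuclei led by Dsp and Il1r1. Egr3 was at 7.38 ± 2.76 against 3.85 ± 1.02 CPM, and Junb at 18.5 ± 5.14 against 12.6 ± 1.90 CPM. Npas4 (1.11 ± 0.874 and 1.31 ± 0.698 CPM) and Fos (0.721 ± 0.624 and 0.923 ± 0.902 CPM) lay within their spread.

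Other excitatory and inhibitory-like clusters also differed from each other by gene. Nr4a1 was at 125 ± 49.8 CPM in the 275 nuclei led by Nts and Fn1, where Nr4a3 was at 11.6 ± 14.0 CPM, and at 75.7 ± 22.8 CPM in the 447 nuclei with Hmga2 and Nxph3 among their leading genes, where Nr4a3 was at 46.1 ± 16.6 CPM. The 411 nuclei led by Teddm3 had 37.2 ± 16.5 CPM of Arc and 55.8 ± 31.2 CPM of Junb. Among inhibitory-like nuclei, Fos was at 11.3 ± 5.54 CPM in the cluster led by Vip, at 5.10 ± 3.00 CPM in that led by Sst and at 3.13 ± 2.61 CPM in that with Pvalb, and Nr4a1 at 40.9 ± 14.4, 25.1 ± 12.6 and 17.5 ± 8.45 CPM in the same order. The differences between clusters were not tested.

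The members were found in the same nuclei more often than the product of their shares would give. Nuclei were thinned to 5000 UMIs, and pairs for which that product came to at least 5 nuclei were counted. In CA1-like nuclei the ratio of nuclei with both genes to the product was above 1 for 30 of 30 pairs, from 1.42 (Arc with Nr4a1) to 4.70 (Fos with Nr4a3), with a median of 2.26. Other excitatory nuclei gave 1.29 to 4.36 over 30 pairs, CA3-like nuclei 1.11 to 3.47 over 12, inhibitory-like nuclei 1.31 to 2.47 over 5 and dentate granule-like nuclei 1.07 to 2.91 over 4, all above 1. Nuclei of a type share a library and, thinned, a depth, and the ratios are given without a test. The product was taken within each mouse over a whole type. Types other than CA1-like pool clusters of unlike levels, such as Nr4a1 at 30.5 to 125 CPM over the other excitatory clusters. Such pooling can raise a ratio above 1, and its part was not tested.

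Fos is given as an example among the pairs that passed this limit. Of the 52 thinned CA1-like nuclei with Fos, 33 (63.5%) also had Junb, 31 (59.6%) Nr4a1, 26 (50%) Nr4a3 and 24 (46.2%) Arc. For Fos with Nr4a3 the product was 5.53 nuclei, and the count was above it in 8 of 8 mice. Junb with Nr4a1 was the most frequent pair, in 103 nuclei against 61.5, also above it in 8 of 8 mice.

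Nuclei with 5 or more members were chosen by detection of the members themselves, which raises their share of those UMIs, so the shares are a description. At full depth, 157 of the 2208 CA1-like nuclei (7.11%) had 5 or more members, and these held 83.6% of the Fos UMIs of the type, 87.8% of Fosb, 63.2% of Npas4 and 60.3% of Nr4a3, but 32.0% of Nr4a1 and 37.4% of Arc. Their median depth was 14013 UMIs, against 12444 for all CA1-like nuclei, and 7 of them were called doublets. By mouse these nuclei came to 5.60%, 8.68% and 8.06% in WT 1, 2 and 3, to 7.77%, 3.66% and 8.56% in GKO 1, 2 and 3, 6.52% in J20;WT and 9.66% in J20;GKO, so that the genotypes overlapped.

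Nuclei with 5 or more members made up 5.37% of other excitatory, 4.75% of CA3-like, 1.51% of inhibitory-like and 0.177% of dentate granule-like nuclei. The dentate ones were 10 nuclei from 6 mice, and they held 36.4% of the Fos, 30.4% of the Nr4a3 and 29.5% of the Npas4 UMIs of 5664 nuclei. At full depth, 4 astrocyte-like, 2 OPC-like and 1 oligodendrocyte-like nuclei reached 5 members, and 1 of each type was called a doublet. Of 2074 microglia-like nuclei 0 did, and their most was 3. Median depth was 17688.5 UMIs in CA3-like, 11711 in inhibitory-like, 7795.5 in dentate granule-like, 3764 in astrocyte-like, 2212 in oligodendrocyte-like and 1952 in microglia-like nuclei. The shares of nuclei with 5 or more members were not matched on depth. The nucleus with the most Nr4a3, 55 UMIs among 49728, was an other excitatory nucleus of WT 2 with 8 members.

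**Figure D3:**
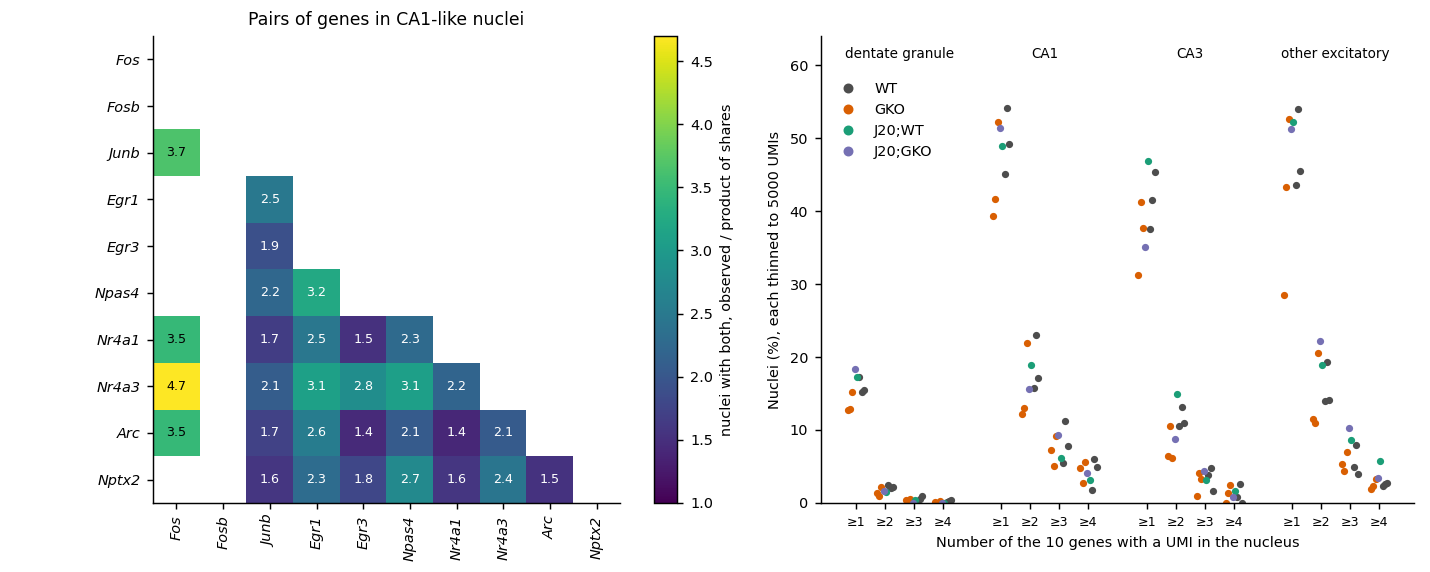
Left, in CA1-like nuclei thinned to 5000 UMIs, the number of nuclei with both genes of a pair divided by the product of the genes' shares (colour and printed value, shown where the product is at least 5 nuclei), from 1.4 to 4.7. Right, percentage of thinned nuclei with at least 1 to at least 4 of the 10 genes, 1 point per mouse, which for at least 3 genes was under 1% in dentate granule nuclei and over 5% in CA1 nuclei of every mouse.

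Genes that accompany or follow the members were examined as 4 lists. Of other immediate early transcription factors, 5 of 9 tested were lower in dentate granule-like than in CA1-like nuclei, namely Egr4 (-2.65), Ier2 (-2.17), Nr4a2 (-2.11), Fosl2 (-0.99) and Fosl1 (-0.37), and 2 were higher, against 21.2% lower and 21.5% higher of all genes. The higher ones were Jun, an AP-1 partner of Fos, at 46.6 ± 8.85 against 10.2 ± 3.34 CPM (log2 fold change 2.19 ± 0.206), and Btg2, an antiproliferative gene, at 49.4 ± 11 against 22.1 ± 11.5 CPM (1.16). The phosphatases and other feedback genes, which end the MAP kinase signal, had 5 of 6 lower, led by Dusp5 (-4.04), Dusp6 (-3.86) and Dusp1 (-2.44), and Dusp4 higher (1.1). The list medians were -0.37 and -1.49, against 0.01 over all genes.

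Later effector genes were mixed, with 7 of 14 lower and 3 higher, the latter near the share of all genes. Sorcs3 (-2.53), Plk2 (-2.49), Vgf (-2.07), Pcsk1 (-2.03) and Homer1 (-2.0), a postsynaptic scaffold gene, were lower, while Nptx1 (1.27), the constitutive partner of Nptx2, Nrn1 (0.97) and the growth factor gene Bdnf (0.87) were higher in dentate granule-like nuclei. The median was -0.51. Among 18 genes of the calcium, CREB, SRF and MEF2 route, 9 were higher, such as Mapk3 (2.49), Mef2c (1.97) and the channel gene Cacna1c (1.48), and 4 lower, with Camk4 at -1.87 and Grin2b at -0.60, a count near the 21.2% of all genes. The median of that list was 0.27, the reverse of the members' sign.

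In the other comparisons these lists moved both ways. Of CA1-like against CA3-like nuclei, 3 of 8 other factors were higher and 1 lower, 2 of 6 feedback genes higher and 0 lower, 6 of 14 later effectors higher and 5 lower, and 7 of 18 route genes higher and 4 lower, where 16.3% of all genes were higher and 19.2% lower. Against inhibitory-like nuclei, excitatory neuron-like nuclei had 6 of 10, 3 of 7, 10 of 14 and 12 of 18 higher and 1, 3, 2 and 2 lower, beside 22.2% and 22.5% of all genes. For dentate granule-like against CA3-like nuclei 3 of 8, 1 of 6, 2 of 14 and 7 of 18 were higher and 4, 4, 7 and 1 lower, beside 23.5% and 24.7% of all genes. Highest in excitatory neuron-like nuclei within their lists were Nr4a2, Btg2 and Jun (37.9, 34.2 and 24.2 CPM), Errfi1, Spry2 and Dusp5 (36.4, 12.7 and 7.15 CPM), Sorcs3, Homer1 and Nrn1 (236, 187 and 139 CPM), and Grin2a, Grin2b and Camk2a.

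Whether loss of GSAP changes the members was asked in the 3 GKO against 3 WT mice, and no member passed the test in any type. In excitatory neuron-like nuclei Fos was at 2.04, 4.09 and 4.08 CPM in WT 1, 2 and 3 and at 2.26, 3.28 and 4.36 CPM in GKO 1, 2 and 3. Arc was at 11, 20.3 and 17.7 CPM in WT and at 12.9, 15.0 and 17.7 CPM in GKO. The values of both genes overlapped between the genotypes, with log2 fold changes of 0.01 ± 0.313 and -0.07 ± 0.214.

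Nr4a1 was at 32.5, 43.7 and 31.6 CPM in WT 1, 2 and 3 and at 23.3, 30 and 51.7 CPM in GKO 1, 2 and 3, so that the lowest and the highest value were both from GKO mice. Nr4a3 was at 19.3, 36.3 and 31.0 CPM in WT and at 18.6, 22.6 and 37.9 CPM in GKO. The log2 fold changes were -0.02 ± 0.262 and -0.10 ± 0.282. Junb was at 26.2 ± 4.35 CPM in WT and 26.5 ± 4.78 CPM in GKO (SD, n = 3), Npas4 at 8.58 ± 2.33 and 8.10 ± 2.60, Egr3 at 6.62 ± 0.195 and 6.51 ± 1.66, Egr1 at 7.74 ± 0.438 and 6.29 ± 1.33, Fosb at 1.39 ± 0.0465 and 1.81 ± 0.992, and Nptx2 at 8.91 ± 2.85 and 8.35 ± 4.33. The values of each overlapped between the genotypes.

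Over 11 groups of nuclei, the excitatory sum included, 64 of 110 possible tests of a member passed the filter on low counts, and 0 were called by edgeR or by DESeq2, where the share of all genes that edgeR called was 0 in each type. Of all genes DESeq2 called 1, a gene lower in the oligodendrocyte-like nuclei of GKO that is no member. At an unadjusted p below 0.05 there was 1, Junb in CA3-like nuclei. It was at 23.6, 26.9 and 22.4 CPM in WT and at 11.7, 20.6 and 18.1 CPM in GKO, every GKO value below every WT value, with a log2 fold change of -0.51 ± 0.200 (adjusted p = 1.00, edgeR). In sign, 25 of the 64 were higher and 39 lower in GKO. The members varied between mice more than most genes: their biological coefficients of variation in excitatory neuron-like nuclei ranked from the 47.9th to the 95.9th percentile of all genes, with a median of 86.4, a rank that was not matched on level.

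The subtypes added no call. In dentate granule-like nuclei 7 members could be tested and all had negative log2 fold changes, from -0.09 ± 0.518 (Arc) to -0.91 ± 0.515 (Nr4a3), and in CA1-like nuclei 10 could, from -0.51 ± 0.352 (Nr4a3) to 0.33 ± 0.167 (Junb). The test of whether the GKO effect differs between dentate granule-like and CA1-like nuclei called 0 members, and the share of all genes called was 0. Of the 10, Junb (-0.59 ± 0.182, adjusted p = 1.00, edgeR) and Nptx2 (-0.59 ± 0.268, adjusted p = 1.00, edgeR) had an unadjusted p below 0.05. DESeq2 also called 0.

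**Figure D4:**
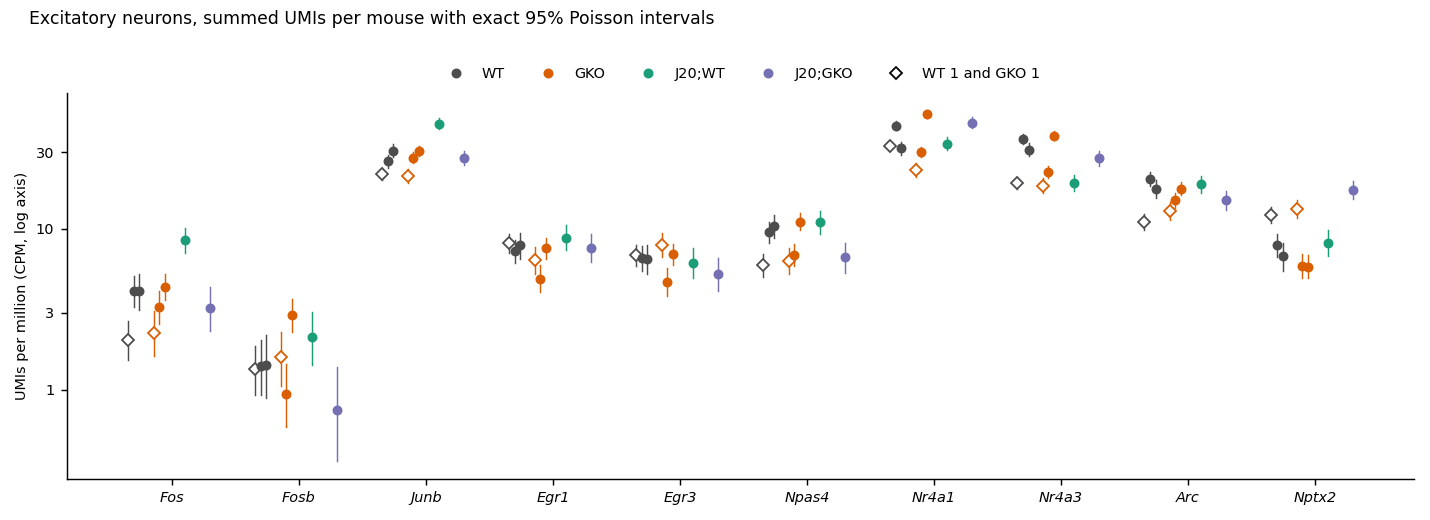
Level of each gene in excitatory neuron nuclei (CPM, log axis) in each of the 8 mice with exact 95% Poisson intervals, which cover counting error only. Open diamonds are WT 1 and GKO 1, which share a date and were below the other 4 WT and GKO mice for Fos, Junb, Npas4, Nr4a3 and Arc. J20;WT was above the other 7 mice for Fos (8.47 CPM), Junb (45.1 CPM) and Egr1 (8.82 CPM). For Egr1 its interval overlapped that of J20;GKO.

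The date moved with the levels. In excitatory neuron-like nuclei WT 1 and GKO 1 were both below the other 4 WT and GKO mice for 5 of 10 members, Fos, Junb, Npas4, Nr4a3 and Arc, where 23.7% of all genes with a UMI were, and above them for 1, Nptx2, where 13.3% were. These 2 mice also had the high Xist and Ttr, and the part of the date in their levels cannot be told apart from that of other differences between these mice. The GKO against WT comparison within the date of 5 mice, with 2 mice per genotype, and with date as a term called 0 members as well.

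The share of excitatory neuron-like nuclei with at least 3 members, each thinned to 5000 UMIs, came to 3.03%, 4.88% and 3.03% in WT 1, 2 and 3, against 2.89%, 2.59% and 4.69% in GKO 1, 2 and 3. The means were 3.65 ± 1.07% and 3.39 ± 1.14% (SD, n = 3), a difference of -0.259 percentage points with an exact permutation p of 0.5 (2-sided), where 3 against 3 mice cannot give a p below 0.1. Without WT 2 the difference was 0.357, and without GKO 2 it was 0.141. CA1-like nuclei were at 8.13% and 7.14% and dentate granule-like nuclei at 0.559% and 0.313%. J20;WT was at 3.54% (exact 95% binomial interval, 2.57 to 4.74%), and J20;GKO at 5.62% (4.28 to 7.21%).

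The genes whose levels most resembled the members over 32 sums, 4 excitatory types by 8 mice with each type centred, were Mif (r = 0.74 with the members' mean), Rps4x (0.74), Btg2 (0.74), Ubb (0.73), 6720427I07Rik (0.70), Cltb (0.68), Snrpd1 (0.68), Psmb5 (0.68), Snrpd2 (0.67) and Mpg (0.67), among 9691 genes of at least 10 CPM. Among them Btg2 is itself an immediate early gene, Ubb encodes ubiquitin, and Rps4x a ribosomal protein. Of the members, Npas4 followed the mean of the other 9 most closely (r = 0.76), then Fos (0.64) and Junb (0.62), while Egr3 (0.05) and Nptx2 (-0.35) did not. The sums of a mouse share its library, and the values are a description.

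In the J20 pair, which has 1 mouse per genotype and therefore no test, J20;WT stood out in other excitatory nuclei. The J20;WT mouse had 21.4 CPM of Fos (exact 95% Poisson interval, 16.7 to 27.0), whereas the J20;GKO mouse had 6.50 CPM (4.35 to 9.33), with the 6 WT and GKO mice at 2.79 to 7.51 CPM. Junb was at 81.2 CPM (71.7 to 91.6) and 40.3 CPM (34.6 to 46.7), with the 6 mice at 21.7 to 40.4 CPM. J20;WT was thus above all 6 for both genes, and J20;GKO within their range.

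For 6 of 10 members in other excitatory nuclei J20;WT was above all 6 mice, where 27.6% of all genes were. Beside Fos and Junb these were Arc (34.5 against 15.2 to 28.1 CPM), Egr1 (18.6 against 7.61 to 12.9 CPM), Npas4 (20.1 against 5.93 to 18.3 CPM) and Fosb (5.49 against 0 to 4.44 CPM). The intervals of the 2 J20 mice were apart for 9 of 10 members, where 17.2% of all genes had them apart, Egr3 being the exception. Nr4a1 (60.4 and 93.6 CPM), Nr4a3 (19.8 and 32.5 CPM) and Nptx2 (2.75 and 15.5 CPM) were lower in J20;WT than in J20;GKO, so the members did not move as 1 group. J20;GKO was above all 6 mice for 1 member, Nptx2, where 18.3% of all genes were.

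The clusters of other excitatory nuclei entered in unequal shares. The cluster led by Teddm3 was 23.1% of them in J20;WT against 5.26 to 14.8% in the 6 mice and 10.1% in J20;GKO, and the cluster led by Bglap3, in which Fos was low, was 13.3% in J20;WT against 48.9% in J20;GKO. Fos was above the range of the 6 mice in 2 of the 7 clusters of J20;WT. Within the Teddm3 cluster Fos was at 41.8 CPM (30.6 to 55.7) in J20;WT, with the 6 mice at 0 to 15.1 CPM and J20;GKO at 7.86 CPM (2.88 to 17.1). Within the Ctgf cluster it was at 37.9 CPM (20.7 to 63.5) in J20;WT, with the 6 mice at 2.12 to 10.4 CPM. In the Bglap3 cluster it was at 2.60 CPM, a single UMI, inside the 1.91 to 8.09 CPM of the 6 mice. Among the other 4 clusters it was at 6.0 CPM in the one led by Hmga2 and Nxph3 (6 mice 0.898 to 8.65) and at 8.17 CPM in that led by Nts and Fn1 (6 mice 0 to 17.6). Fos had 0 UMIs in the remaining pair, with 44 and 19 nuclei of J20;WT. Their upper bounds of 65.6 and 43.4 CPM were too wide to tell whether Fos was raised there. Mitochondrial UMIs were 0.497% of other excitatory UMIs in J20;WT and 0.22 to 0.388% in the other 7 mice, and J20;WT is the only library of its date, so genotype, date and mouse cannot be told apart.

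**Figure D5:**
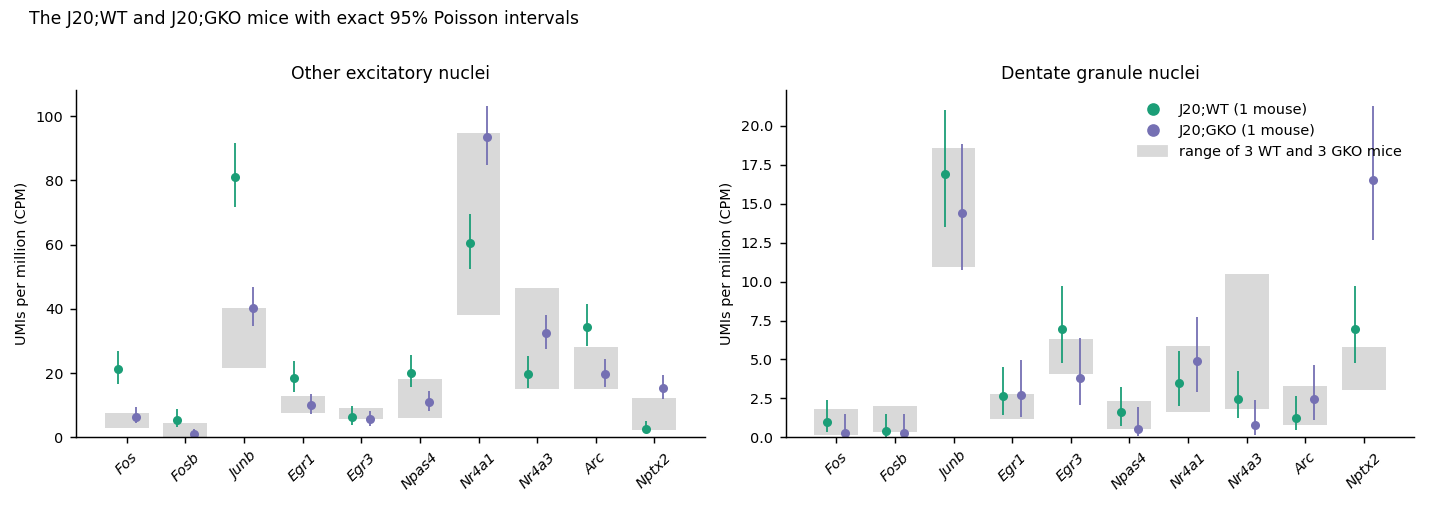
Level of each gene (CPM, linear axes that differ between panels) in the J20;WT and the J20;GKO mouse with exact 95% Poisson intervals, beside the range of the 6 WT and GKO mice (grey bars). In other excitatory nuclei J20;WT exceeds the range for Fos (21.4 CPM) and Junb (81.2 CPM), and in dentate granule nuclei J20;GKO exceeds it for Nptx2 (16.5 CPM).

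The other neuron types showed less of this. In CA3-like nuclei J20;WT was above all 6 mice for 4 members, where 24.3% of all genes were, namely Fos (7.15 against 0.689 to 3.29 CPM), Junb (38.9 against 11.7 to 26.9 CPM), Fosb and, barely, Nr4a1 (32.7 against 28.0 to 32.4 CPM). The J20 intervals there were apart for 3 members, Fos, Junb and Npas4, where 12.4% of all genes had them apart. They were apart for 2 in CA1-like nuclei (Junb and Nr4a1, against 12.8% of genes), 1 in inhibitory-like nuclei (Junb, at 28.7 and 10.3 CPM, against 7.52%) and 7 in the sum of excitatory neuron-like nuclei (against 26.6%).

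Dentate granule-like nuclei had their intervals apart for 1 member, Nptx2, where 20.9% of all genes had, and J20;GKO was above all 6 mice for that gene, where 27.3% were. J20;WT had 6.93 CPM of Nptx2 (4.80 to 9.69) where J20;GKO had 16.5 CPM (12.7 to 21.2), with the 6 mice at 3.03 to 5.80 CPM. It was high in J20;GKO in both dentate clusters, at 7.98 CPM (4.36 to 13.4) among nuclei led by Dsp against 0.242 to 1.87 CPM in the 6 mice, and at 24.3 CPM (17.9 to 32.3) among those led by Plk5 against 7.26 to 12.9 CPM. Across excitatory neuron-like nuclei Nptx2 was at 12.1, 13.3 and 17.5 CPM in WT 1, GKO 1 and J20;GKO, the 3 mice with high Xist, and at 5.82 to 8.19 CPM in the other 5; the part of that difference between mice in the result was not tested.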

How the data were processed

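Hippocampal nuclei of 8 mice were sequenced with the 10X Genomics platform. Per the study's methods, the authors made the deposited UMI counts per gene and nucleus with Cell Ranger 3.0.2 on mm10 and used Seurat 3.0 in R 3.6.2; whether intronic reads were counted is not given in the sources used here. From these counts, nuclei with at most 5% mitochondrial UMIs and 200 to 7500 genes were kept, 32041 of 33314 barcodes, slightly more nuclei than the study clustered. Nuclei were integrated and clustered with Seurat 5.3.0 and sctransform 0.4.2 (3000 features of which 22 were dropped as members or list genes, 30 components, resolution 0.8). Clusters were named by markers, and the naming margin of 0.5 and the group of other excitatory nuclei were set after seeing the clusters. Scrublet worked in 6 libraries (3.45 to 6.50% called) and not in WT 1 and GKO 1, and its calls were kept except in an alternative.

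Counts were summed per mouse and type, in 10 types with at least 10 nuclei per mouse and all excitatory neurons, and tested (Cajal-Retzius-like nuclei, 14 to 41 per mouse, were only pooled), in R 4.3.3 with edgeR 4.0.16 (TMM, filterByExpr, robust quasi-likelihood fit over all genes, adjusted p below 0.05, log2 fold change beyond 0.3). DESeq2 1.42.0, other normalization, no filter, doublets left out, nuclei of at least 1000 UMIs, gated nuclei, left-out mice, a replicate block and a date term were alternatives, and the 1-date fit was added after seeing the data. The fits were tested on simulated data. The order of types used log2(CPM + 1) and an exact sign-flip permutation test within mouse. All members are named, and list genes where they passed the test or were among the 3 highest of their list in excitatory neuron-like nuclei. The members and lists were chosen with earlier results of these data known. The deviations of same-numbered WT and GKO mice correlated at 0.67, 0.28 and 0.36, and they were taken as paired in the block. However, WT 3 with GKO 2 gave 0.41 and WT 2 with GKO 3 gave 0.29. Only WT 1 and GKO 1, which share a date, stood out as a pair, and the labels give no pairing. The labels do not say more of the animals than 1 library per mouse, p-values measure the spread between these libraries, and intervals cover counting error only.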

Additional observations from a re-analysis of the deposited data

How the results depend on the processing

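Of the counts of members called, those for dentate granule-like against CA1-like nuclei (10, or 9 without the mouse block), dentate granule-like against CA3-like nuclei (7, or 6) and excitatory neuron-like against inhibitory-like nuclei (8, from 6 without the block to 10 with doublets left out) stayed within 1.5 times of their value. The last count takes both directions: Fos, negative throughout, was called lower with doublets left out, with WT and GKO mice alone, with the mice of 1 date and without WT 1, WT 2, J20;WT or J20;GKO, and Nr4a1 lost its call without the block, with WT and GKO mice alone and without J20;WT or J20;GKO. That for CA1-like against CA3-like nuclei went from 8 to 5 with gated nuclei, and to between 5 and 9 when 1 mouse was left out. The GKO against WT count was 0 under every alternative run, the replicate block included, and the interaction count 0 likewise. The replicate block changed no GKO against WT call. The highest type stayed the same for 7 to 10 of the 10 members.

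The GKO minus WT difference in the share with at least 3 members was 0.0262 percentage points with at least 4 members and ran from -0.911 to 0.357 without 1 mouse. In excitatory neuron-like nuclei the sign of the GKO against WT log2 fold change turned under some alternative for every member but Egr1. Fos gave -0.000712 with DESeq2, -0.0183 with the replicate block, -0.00611 with a date term and -0.0870 with the mice of 1 date. Egr3 gave 0.0165 without doublets and 0.0118 with gated nuclei, Npas4 0.0312 and 0.0122, Nr4a1 0.12 with 1 date and Nptx2 0.0391 with gated nuclei. Leaving out 1 mouse gave -0.27 to 0.19 for Fos, -0.12 to 0.74 for Fosb, -0.069 to 0.16 for Junb, -0.29 to 0.13 for Arc, -0.19 to 0.20 for Egr3, -0.34 to 0.089 for Npas4, -0.41 to 0.18 for Nr4a1, -0.46 to 0.11 for Nr4a3 and -0.63 to 0.21 for Nptx2. Egr3 in dentate granule-like against CA3-like nuclei ran from -0.13 to 0.054. The cause was not tested. Among single values between types, 619 of 659 alternatives kept side and direction, 27 lost the call, 12 gained it and 1 reversed.

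Depth limits Fosb most, with 344 UMIs in all, and detection in dentate granule-like nuclei for 5 members.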

Other observations

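The 3193 nuclei left unnamed carried all 10 members, at 32.0 CPM for Junb, 27.4 for Nr4a1, 23.6 for Nr4a3, 16.7 for Arc, 12.4 for Nptx2, 10.2 for Npas4, 7.39 for Egr1, 5.81 for Egr3, 5.32 for Fos and 2.19 for Fosb, pooled over the 8 mice. Among small types that were only summed over the mice, choroid plexus-like nuclei had Nr4a1 at 20.1 CPM (exact 95% Poisson interval 12.9 to 29.9), and Cajal-Retzius-like nuclei had Nptx2 at 12.1 CPM (5.21 to 23.8) and no UMI of Fos in 214 nuclei (upper bound 5.56 CPM). These intervals cover counting error only and pool mice.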
